A study of Mus musculus with 36 samples.

Results

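The genes described are 3 facilitative glucose transporters, Slc2a1, Slc2a3 and Slc2a4, and 3 genes whose proteins act on glucose transporters, Txnip, Stxbp3 and Stxbp4. Their probe sets were taken by gene symbol and Entrez identifier from the annotation of the array, and 17 of the 45101 probe sets belonged to the 6 genes, of 18193 genes that probe sets with a single symbol named. A probe set is a group of probes that together give 1 signal intensity for a transcript, and it was called detected where that intensity exceeded 100 on at least 9 of the 36 arrays. This held for 12 of the 17, within 27178 detected probe sets in all, and 5 of the 6 genes had at least 1 detected probe set. The genes were taken up because several of them stood out in the morphine contrasts of these same arrays. Their acute and chronic differences from saline are therefore a description without a test, and tests are given for strain and for the strain by morphine interaction.

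Striatum, dissected as the rostral caudate/putamen with the nucleus accumbens, was collected from adult male mice aged 8 to 10 weeks. The inbred strains SWR/J, DBA/2J, 129P3/J and C57BL/6J were used. In each strain, acute mice received saline for 4 days and 20 mg/kg of morphine on day 5, and chronic mice received 3 injections of morphine a day at 10, 20, 40 and 40 mg/kg over 4 days, then 40 mg/kg once more on day 5. Saline mice, the controls, followed the same injection schedule without morphine, all injections were subcutaneous, and all mice were killed 4 hours after the last one. The 12 groups held 3 arrays each, every array carried RNA pooled from 3 mice, and errors and p-values therefore measure the spread between pools, not between single mice. Unless a block or random term is named, errors, intervals and p-values treat all arrays as independent. Arrays alike in treatment and replicate number deviated together between strains, as given below. Intensities are on a linear scale, as deposited.

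Glucose enters the brain by facilitated diffusion. Slc2a1 encodes GLUT1, the carrier of the blood-brain barrier and of astrocytes, Slc2a3 encodes GLUT3, the carrier of neurons, and Slc2a4 encodes GLUT4, which is held in vesicles and brought to the cell surface by insulin in fat and muscle. Txnip, the thioredoxin-interacting protein, is an arrestin-like protein that promotes the removal of GLUT1 and GLUT4 from the cell surface and is itself induced when glucose is plentiful. Stxbp3 (Munc18c) and Stxbp4 (Synip) bind syntaxin 4, the membrane protein with which GLUT4 vesicles fuse.

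The 250 bases before the annotated transcription start are shown for Slc2a1, Txnip, Stxbp3 and Stxbp4, the genes whose leading probe set, described next, differed between treatments. They are RefSeq sequences of build GRCm38.p6, printed 5′ to 3′ on the strand of the gene, and the motifs named after them are in capitals, with positions counted back from the start.
Slc2a1, chr4:119108495-119108744, plus strand: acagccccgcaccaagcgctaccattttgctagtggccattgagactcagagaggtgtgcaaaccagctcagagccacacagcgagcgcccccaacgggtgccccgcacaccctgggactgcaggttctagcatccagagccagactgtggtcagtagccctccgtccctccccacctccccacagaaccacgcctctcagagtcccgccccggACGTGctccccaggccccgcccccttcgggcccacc
Txnip, chr3:96557707-96557956, plus strand: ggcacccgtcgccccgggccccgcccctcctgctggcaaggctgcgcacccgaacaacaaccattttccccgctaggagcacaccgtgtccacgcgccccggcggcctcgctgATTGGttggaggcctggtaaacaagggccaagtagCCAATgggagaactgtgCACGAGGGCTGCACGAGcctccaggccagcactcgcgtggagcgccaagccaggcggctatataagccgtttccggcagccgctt
Stxbp3, chr3:108840503-108840752, minus strand: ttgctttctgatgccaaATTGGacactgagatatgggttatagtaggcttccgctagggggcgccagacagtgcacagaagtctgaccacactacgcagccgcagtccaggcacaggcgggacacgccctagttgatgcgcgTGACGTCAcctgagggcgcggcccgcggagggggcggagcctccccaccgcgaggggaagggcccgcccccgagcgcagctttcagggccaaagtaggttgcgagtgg
Stxbp4, chr11:90638109-90638358, minus strand: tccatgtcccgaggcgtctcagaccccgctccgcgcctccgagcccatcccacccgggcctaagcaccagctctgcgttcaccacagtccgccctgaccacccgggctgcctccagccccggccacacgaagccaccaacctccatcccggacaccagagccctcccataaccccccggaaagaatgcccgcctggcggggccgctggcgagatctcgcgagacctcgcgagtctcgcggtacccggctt
Each motif was searched on both strands in these 4 windows and in 32851 promoters of the same length. The Slc2a1 window held ACGTG, the core of the hypoxia response element, at position -36, a motif found in 16.6% of all windows. The Txnip window held a pair of CACGNG boxes 5 bases apart, the form of the carbohydrate response element bound by MondoA and Mlx, starting at position -85, and such a pair occurred in 15 of all windows, or 0.0457%. In the Stxbp3 window the full cyclic AMP response element TGACGTCA lay at position -108, against 1.55% of all windows. CCAAT, whose reverse complement ATTGG is in capitals where it lies on the other strand, was found in the Txnip and Stxbp3 windows and in 33.8% of all windows. None of the capitalized motifs was found in the Stxbp4 window, and AGAACA, the core hexamer of glucocorticoid response elements, was in none of the 4 and in 16.1% of all windows. GGGCGG, the GC box, was in all 4 windows and in 32.7% of all windows, and is left in lower case. No match in these windows overlapped another. A match is a stretch of letters and not a measured binding site.

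Slc2a1 had higher intensities after acute morphine than after saline on each of its 3 probe sets and in each of the 4 strains, and after chronic morphine the differences from saline were positive as well. On the leading probe set (1434773_a_at, the one of highest mean signal) the 12 acute arrays ran from 1521 to 2164 with a median of 1717, the 12 chronic arrays from 1299 to 1795 with a median of 1564, and the 12 saline arrays from 1056 to 1468 with a median of 1330. Every acute array lay above every saline array, while the chronic arrays overlapped with both. Probe set 1426599_a_at gave 850 to 1271 after acute morphine, 724 to 1064 after chronic morphine and 517 to 787 after saline, again with no acute array below a saline one. For 1426600_at the ranges were 1285 to 1761 acute, 1331 to 1781 chronic and 866 to 1328 saline, and here it was the chronic arrays that all lay above all saline arrays. The last 2 probe sets were designed on the same target sequence, so they are not separate measurements of the gene.

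Array by array, the leading Slc2a1 probe set read 2164, 2060 and 2046 in C57BL/6J acute mice, 1795, 1739 and 1299 in C57BL/6J chronic mice, and 1089, 1294 and 1370 in C57BL/6J saline mice. Its 129P3/J arrays read 1690, 1949 and 1655 acute, 1326, 1698 and 1710 chronic, and 1169, 1468 and 1419 saline. The acute arrays of C57BL/6J were the 3 highest of the 36. Its chronic arrays all lay below its acute arrays, as held for 7.37% of all detected probe sets, and overlapped with its saline arrays. In 129P3/J the chronic arrays overlapped with both other groups. DBA/2J arrays gave 1688, 1745 and 1548 acute, 1394, 1531 and 1495 chronic, and 1056, 1212 and 1384 saline. SWR/J arrays gave 1582, 1766 and 1521 acute, 1597, 1653 and 1445 chronic, and 1365, 1274 and 1429 saline. In DBA/2J and SWR/J all 3 chronic arrays also stood above all 3 saline arrays, a pattern shown by 2.15% of all detected probe sets in DBA/2J and 4.86% in SWR/J. Group means ranged between 2090 ± 64.2 in C57BL/6J acute mice and 1217 ± 164 in DBA/2J saline mice (SD, n = 3 each).

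**Figure D1:**
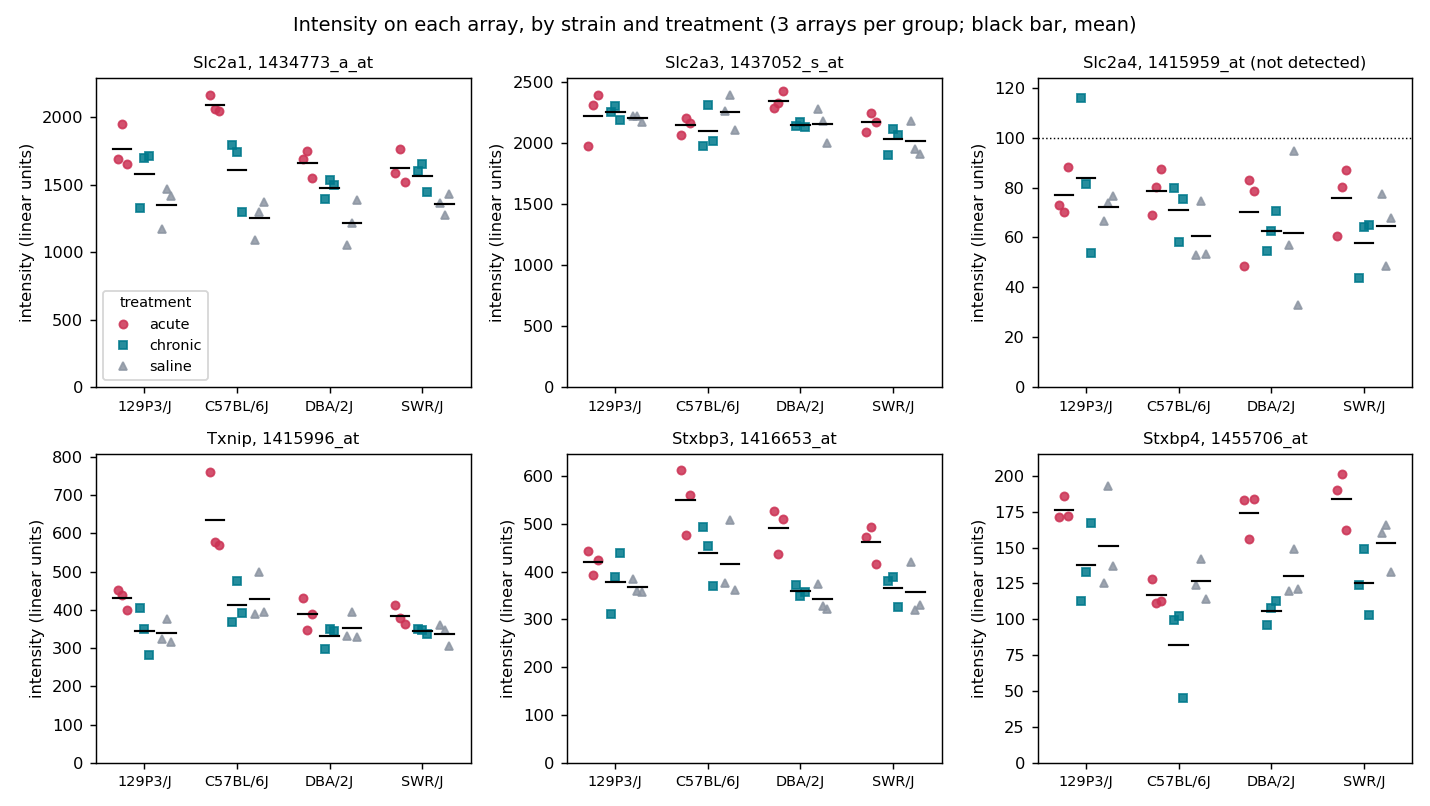
Intensity on each array (vertical axes, linear units) of the leading probe set of each gene by strain, with circles for acute, squares for chronic and triangles for saline arrays and black bars for means of 3 arrays. Acute Slc2a1 values, 1521 to 2164, lie above all saline values, and Slc2a4 stays near or below the detection intensity of 100, drawn as a dotted line.

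Averaged over the 4 strains, the log2 difference of acute from saline was 0.46 (SE 0.062, 95% interval 0.33 to 0.59, a 1.38-fold ratio) on the leading Slc2a1 probe set, 0.39 (SE 0.059) on 1426600_at and 0.61 (SE 0.072, 1.53-fold) on 1426599_a_at. The differences of chronic from saline were 0.27 (SE 0.062, interval 0.14 to 0.39), 0.36 and 0.37 in the same order. Chronic was lower than acute by 0.20 and 0.24 on the 2 probe sets of type _a_at and differed from it by -0.035 (interval -0.16 to 0.086) on 1426600_at. Within strains the acute difference on the leading probe set was 0.75 in C57BL/6J, 0.45 in DBA/2J, 0.39 in 129P3/J and 0.26 in SWR/J (SE 0.12 each), and the chronic difference lay between 0.21 in SWR/J and 0.36 in C57BL/6J. Acute exceeded saline on every array in each of the 4 strains on all 3 Slc2a1 probe sets, a pattern shown by 72 detected probe sets, or 0.265% of all. Acute above saline across all arrays of both treatments, seen on 2 Slc2a1 probe sets, held for 26 detected probe sets or 0.0957%, and chronic above saline across all arrays, seen on 1426600_at, held for 8 or 0.0294%. These contrasts chose the genes, so the background shares are given for scale only.

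GLUT1 is the main glucose carrier of brain endothelium, so the levels of other endothelial genes were set beside it. The summed intensity of the 10 detected endothelial marker genes of 12 listed was 3197 to 4319 (median 3741) on acute arrays, 3208 to 4582 (median 3579) on chronic arrays and 3415 to 5065 (median 3822) on saline arrays, and no marker was at the floor of the table on every array. Flt1, a vascular endothelial growth factor receptor, fell by 0.27 on the log2 scale after acute morphine (adjusted p = 0.0315, limma) and by 0.25 after chronic morphine (adjusted p = 0.0457, limma), and Tek, the angiopoietin receptor, fell by 0.27 after acute morphine (adjusted p = 0.00122, limma). No endothelial marker passed upward in either contrast. With a random term for arrays alike in treatment and replicate number, the Flt1 values did not pass (adjusted p = 0.272 acute and 0.346 chronic, limma), and Tek did (adjusted p = 0.0383, limma). Astrocytes carry GLUT1 too, and their markers, 7 of 7 detected, summed to 11610 to 13337 (median 12954) acute, 11099 to 12243 (median 11550) chronic and 10823 to 13823 (median 12227) saline. One of the 7, the gap junction gene Gjb6 (connexin 30), rose by 0.51 after acute morphine (adjusted p = 9.17e-05, limma, and 0.00174 with the random term) and by 0.31 after chronic morphine (adjusted p = 0.0138, limma, and 0.12 with the random term). After chronic morphine the water channel gene Aqp4 fell by 0.30 (adjusted p = 0.0136, limma) and the connexin 43 gene Gja1 by 0.21 (adjusted p = 0.0229, limma), with 0.181 and 0.214 under the random term. Of the 6 vessel wall markers 1 was called, Pdgfrb, which fell by 0.36 after chronic morphine (adjusted p = 0.0419, limma, and 0.285 with the random term). Choroid plexus markers, 3 of 7 detected, summed to 1324 to 4936 acute, 1183 to 7295 chronic and 1156 to 6849 saline. The part of these markers in the Slc2a1 differences was not tested. In tissue RNA, more cells of a type and more RNA per cell cannot be told apart.

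Slc2a3, the neuronal carrier, had treatment ranges that overlapped over the 36 arrays on each of its detected probe sets. Its leading probe set (1437052_s_at) had intensities of 1975 to 2431 (median 2227) after acute morphine, 1905 to 2312 (median 2137) after chronic morphine and 1914 to 2392 (median 2183) after saline. The acute difference was 0.043 (SE 0.04, interval -0.039 to 0.13) and the chronic difference -0.016 (interval -0.098 to 0.066). Both intervals ended below 0.27, the lowest all-strain difference found on Slc2a1. Another probe set on the same target sequence (1455898_x_at, some of whose probes resemble other sequences) read 1396 to 1732 acute, 1296 to 1646 chronic and 1353 to 1675 saline, with an acute difference of 0.052 and a chronic one of 0.025. Within DBA/2J the acute arrays stood apart. There 1437052_s_at read 2289 to 2431 acute, 2132 to 2177 chronic and 2002 to 2281 saline, and 1455898_x_at read 1564 to 1732 acute, 1491 to 1559 chronic and 1443 to 1545 saline, so that all acute arrays lay above all chronic and all saline ones on both. Of all detected probe sets, 15.6% had acute above saline on every DBA/2J array and 17.6% had chronic below acute. None of the 12 member probe sets was called within DBA/2J at an adjusted p of 5% (limma). On 1455898_x_at acute also lay above saline on every SWR/J array, as it did for 7.24% of detected probe sets. Chronic lay above saline on every 129P3/J array, against 5.21%. In C57BL/6J neither probe set separated the treatments from saline.

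The remaining detected probe set of Slc2a3, 1421924_at, targets another sequence of the gene and was near the detection limit, above 100 on 18 of the 36 arrays. It separated strains rather than treatments. All 9 SWR/J arrays read between 31.6 and 59.7 (median 51.9), against 85.8 to 144 (median 107) in 129P3/J, 92.6 to 138 (median 108) in DBA/2J and 25.2 to 121 (median 98.6) in C57BL/6J. The C57BL/6J value of 25.2 came from saline replicate 1 and was the only array of the other strains within or below the SWR/J range. By strain and treatment, SWR/J read 51.9, 39.7 and 59.1 acute, 59.7, 35.9 and 31.6 chronic, and 46.9, 57.2 and 55.8 saline. Under each treatment it stayed below every array of the other strains except C57BL/6J saline replicate 1.

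The strain effect on 1421924_at passed the 1% threshold (limma F-test, adjusted p = 1.68e-05). SWR/J was below the mean of the 4 strains by a log2 difference of -0.83 (SE 0.12, adjusted p = 4.33e-06, limma). 129P3/J was above it by 0.39 (adjusted p = 0.0285, limma) and DBA/2J by 0.36 (adjusted p = 0.0492, limma). The mean of the 4 strains includes SWR/J, so these 2 values are not separate from the low SWR/J signal. On the other 2 detected Slc2a3 probe sets SWR/J differed from that mean by -0.067 (interval -0.13 to -0.0093) and -0.064 (interval -0.12 to -0.0055), and neither passed (strain F-test, adjusted p = 0.326 and 0.43, limma). No SWR/J array exceeded 100 on 1421924_at, which entered the test through the other 3 strains, so the size of the difference refers to a signal below the detection intensity. With no filter on signal the strain effect of 1421924_at had an adjusted p of 4.72e-05 (limma). On the mean over the detected probe sets of the gene it was 2.72e-06 (limma). That mean includes 1421924_at, so it is no separate evidence for the gene, whose other 2 detected probe sets did not pass. Under a filter on the mean signal over all arrays 1421924_at was not tested, since its mean lay below 100. The undetected probe set of the gene, 1427770_a_at, exceeded 100 on 1 array.

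**Figure D2:**
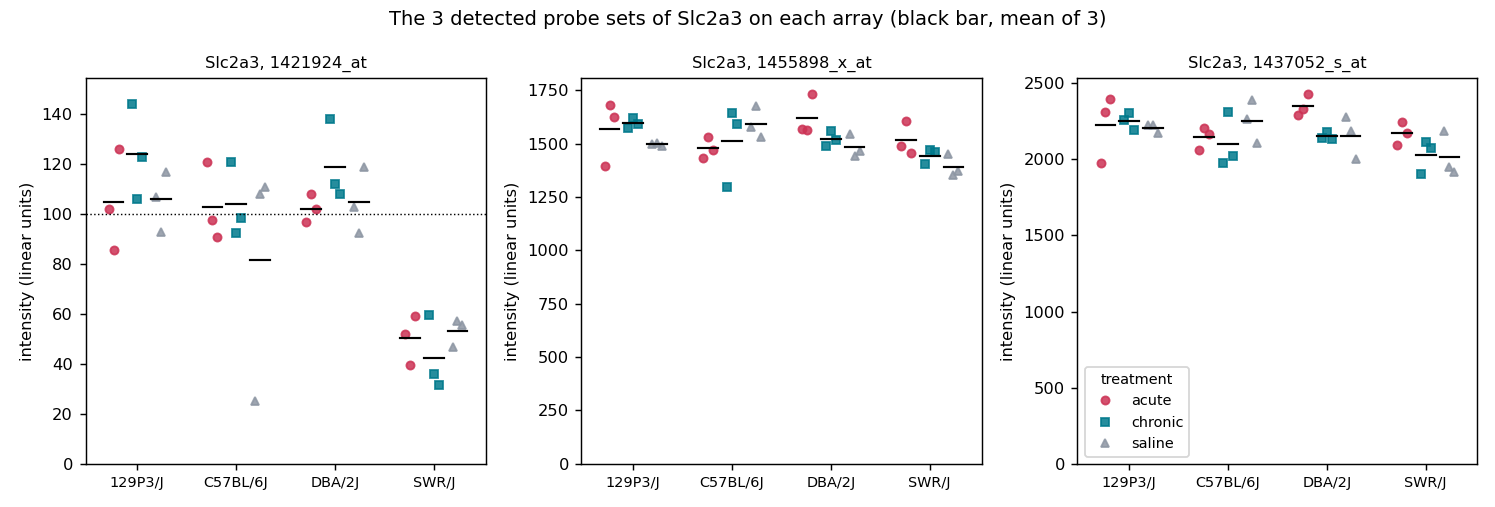
Intensity on each array (vertical axes, linear units) of the 3 detected probe sets of Slc2a3 by strain and treatment, with black bars for means of 3 arrays and a dotted line at the detection intensity of 100. On 1421924_at all 9 SWR/J arrays lie at or below 59.7, while the other 2 probe sets overlap between strains.

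Slc2a4 was not detected on either of its 2 probe sets, which share a target sequence. Intensities of 1415959_at ran from 48.4 to 88.3 on acute arrays, 43.6 to 116 on chronic arrays and 33.1 to 94.6 on saline arrays, and those of 1415958_at from 47.6 to 113, 47.7 to 97.5 and 51.8 to 78.9 in the same order. Each exceeded 100 on 1 of 36 arrays. At this signal the acute difference of 1415959_at was 0.25 with an interval of -0.046 to 0.55, which reaches the size seen on Slc2a1. On 1415958_at it was 0.082 with an interval of -0.14 to 0.30, below the acute Slc2a1 differences of 0.39 to 0.61. With neither probe set detected, these intervals do not bound the level of the insulin-responsive carrier. The gene therefore had no call in any comparison.

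Txnip was higher after acute morphine than after saline, most of all in C57BL/6J, and after chronic morphine its level was close to that of saline mice. C57BL/6J arrays of the leading probe set (1415996_at) read 760, 577 and 569 acute, 368, 476 and 392 chronic, and 388, 500 and 395 saline. The 3 acute C57BL/6J arrays were the highest of all 36. In 129P3/J the values were 452, 438 and 399 acute, 404, 350 and 281 chronic, and 324, 376 and 316 saline. DBA/2J arrays read 430, 348 and 390 acute, 299, 351 and 345 chronic, and 333, 394 and 329 saline. SWR/J arrays read 413, 378 and 363 acute, 351, 348 and 336 chronic, and 361, 347 and 305 saline. Acute and saline arrays did not overlap in C57BL/6J, 129P3/J and SWR/J and overlapped in DBA/2J, and chronic and saline arrays overlapped in all 4 strains. Of all detected probe sets, acute lay above saline on every array for 5.45% in C57BL/6J, 6.2% in 129P3/J and 7.24% in SWR/J.

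Over all strains the acute difference of Txnip was 0.31 (SE 0.067, interval 0.18 to 0.45, 1.24-fold), the chronic difference -0.023 (interval -0.16 to 0.11), and chronic differed from acute by -0.33 (interval -0.47 to -0.20). Strain by strain the acute difference was 0.57 in C57BL/6J, 0.35 in 129P3/J, 0.19 in SWR/J and 0.15 in DBA/2J (SE 0.13 each). The dimmer probe set 1415997_at, above 100 on 19 arrays, gave 0.34 (SE 0.13) for acute and 0.088 for chronic over all strains, and its within-strain acute differences were 0.94 in C57BL/6J, 0.39 in 129P3/J, -0.04 in SWR/J and 0.061 in DBA/2J. On that probe set C57BL/6J saline replicate 1 read 56.4, against 131 and 107 on the other saline arrays of the strain.

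Strain had an effect on Txnip beyond the spread of pools (limma F-test, adjusted p = 9.53e-05 for 1415996_at). Its 9 C57BL/6J arrays ran from 368 to 760 (median 476), against 281 to 452 (median 376) in 129P3/J, 299 to 430 (median 348) in DBA/2J and 305 to 413 (median 351) in SWR/J. C57BL/6J was above the mean of the strains by 0.31 (SE 0.047, adjusted p = 1.68e-05, limma), and also by 0.35 on 1415997_at (adjusted p = 0.00758, limma), whose F-test did not pass 1% (adjusted p = 0.0246, limma). Txnip had been picked from these same arrays before, so its strain result is not independent evidence. Among saline mice alone the differences had the same direction and did not pass 5%. Txnip geometric means were 338 in 129P3/J and 425 in C57BL/6J saline mice (log2 difference -0.33, interval -0.60 to -0.057, adjusted p = 0.207, limma), and C57BL/6J minus SWR/J was 0.34 (interval 0.062 to 0.61, adjusted p = 0.172, limma).

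Stxbp3 was also higher after acute morphine than after saline and close to saline after chronic morphine. The leading probe set (1416653_at) had 393 to 612 (median 475) on acute arrays, 311 to 493 (median 377) on chronic arrays and 320 to 507 (median 360) on saline arrays. Acute arrays of DBA/2J read 526, 436 and 511, its chronic arrays 373, 349 and 358, and its saline arrays 375, 328 and 322. Only in DBA/2J and 129P3/J did all acute arrays of this probe set exceed all saline arrays of the strain. Of all detected probe sets, 15.6% did so in DBA/2J and 6.2% in 129P3/J. In C57BL/6J the values were 612, 477 and 561 acute, 493, 453 and 370 chronic, and 377, 507 and 361 saline, where 1 saline array overlapped with the acute ones. 129P3/J gave 443, 393 and 424 acute, 311, 388 and 438 chronic, and 385, 360 and 357 saline. SWR/J gave 473, 493 and 417 acute, 381, 389 and 325 chronic, and 421, 320 and 330 saline, with 1 saline array just above the lowest acute array.

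The acute difference of Stxbp3 was 0.38 (SE 0.069, interval 0.24 to 0.52, 1.30-fold) and lay between 0.19 in 129P3/J and 0.52 in DBA/2J, while the chronic difference was 0.059 (interval -0.082 to 0.20). Chronic differed from acute by -0.32 (interval -0.46 to -0.18). The dimmer probe set 1435058_x_at showed a larger acute difference of 0.66 (SE 0.11, 1.58-fold), with 192 to 335 acute, 144 to 251 chronic and 98.1 to 273 saline. A pseudogene of Stxbp3 is annotated in the mouse, and probes of the _x_at type can take up signal of similar sequences, so the source of this larger value is uncertain. The strain F-test of Stxbp3 did not pass 1% (adjusted p = 0.0497 and 0.122, limma), although C57BL/6J stood above the mean of the strains by 0.18 (adjusted p = 0.0116, limma) and 0.25 (adjusted p = 0.0364, limma) on the 2 probe sets.

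Stxbp4 differed in the opposite direction after chronic morphine. Its leading probe set (1455706_at) was above 100 on 33 of 36 arrays, with 111 to 201 (median 172) acute, 45.2 to 167 (median 111) chronic and 114 to 193 (median 135) saline. DBA/2J arrays read 183, 156 and 184 acute, 95.9, 108 and 113 chronic, and 120, 149 and 121 saline. C57BL/6J arrays read 128, 111 and 113 acute, 99.3, 102 and 45.2 chronic, and 124, 142 and 114 saline. In these strains all chronic arrays lay below all saline arrays, a pattern shown by 3.95% of all detected probe sets in DBA/2J and 8.44% in C57BL/6J. 129P3/J arrays read 171, 186 and 172 acute, 113, 133 and 167 chronic, and 125, 193 and 137 saline. SWR/J arrays read 190, 201 and 162 acute, 124, 149 and 103 chronic, and 160, 166 and 133 saline. In 129P3/J and SWR/J chronic and saline arrays overlapped.

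For Stxbp4 the chronic difference from saline was -0.36 (SE 0.10, interval -0.57 to -0.14), the acute difference 0.21 (SE 0.10, interval -0.0062 to 0.42), and chronic differed from acute by -0.57 (interval -0.78 to -0.35). Leaving out C57BL/6J chronic replicate 3, which read 45.2, gave -0.26 for chronic minus saline and -0.47 for chronic minus acute. Within strains the chronic difference was -0.71 in C57BL/6J, -0.30 in DBA/2J, -0.30 in SWR/J and -0.13 in 129P3/J, and the acute difference was -0.11 in C57BL/6J, against 0.25 to 0.43 in the other strains (SE 0.21 each). The chronic value of C57BL/6J was -0.32 without its chronic replicate 3, that of SWR/J -0.16 without its chronic replicate 3, that of DBA/2J -0.19 without its saline replicate 2, and that of 129P3/J 0.056 without its saline replicate 2. The probe set 1453989_at, just inside the detection rule with 12 arrays above 100, had a chronic difference of -0.29 (interval -0.55 to -0.03). Just outside the rule, 1451063_at had 8 arrays above 100 and differences of -0.37 acute and -0.26 chronic, and 1442267_at had none above 100. Cortical excitatory neuron markers moved on the chronic arrays too: the 4 detected of 5 summed to 971 to 2695 (median 1665) chronic, against 463 to 1782 (median 1064) saline, and Neurod2 rose by 0.59 (adjusted p = 0.00736, limma, and 0.0982 with a random term for treatment and replicate number). Their part in the Stxbp4 difference was not tested.

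Strain also had an effect on Stxbp4 (1455706_at, limma F-test, adjusted p = 0.00258). C57BL/6J ran from 45.2 to 142 (median 113) and was below the mean of the strains by a log2 difference of -0.36 (SE 0.074, adjusted p = 0.000991, limma). The other strains read 113 to 193 (median 167) in 129P3/J, 103 to 201 (median 160) in SWR/J and 95.9 to 184 (median 121) in DBA/2J. The other detected probe set of the gene gave no such difference, with C57BL/6J at 0.008 from the mean (interval -0.18 to 0.19) and an F-test adjusted p of 0.86 (limma). Taking the mean over both probe sets, the strain effect of Stxbp4 no longer passed (adjusted p = 0.159, limma).

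**Figure D3:**
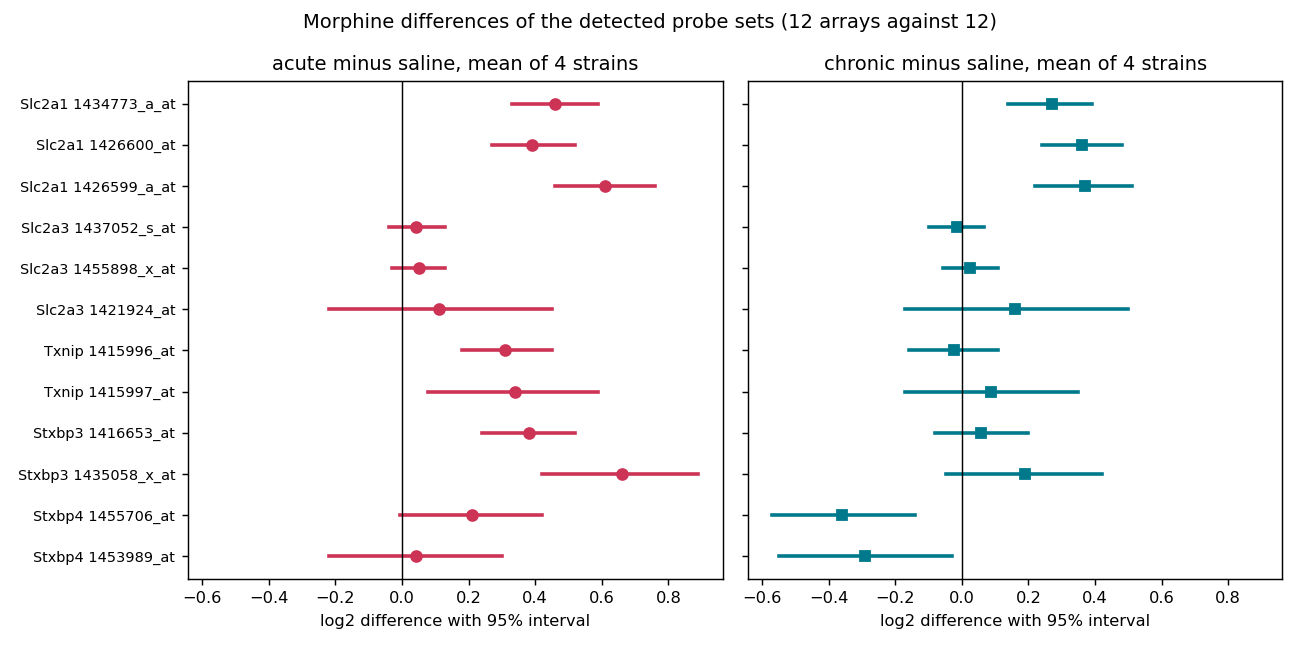
Log2 differences of the 12 detected probe sets, mean of the 4 strains, for acute minus saline (left) and chronic minus saline (right), with lines for 95% intervals. These treat arrays as independent. The intervals of Slc2a1 lie wholly to the right of 0 in both panels and those of Txnip and Stxbp3 in the acute panel only, where chronic values such as 0.088 and 0.059 have intervals that reach 0, while the Stxbp4 intervals lie to the left of 0 in the chronic panel.

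Counted over the 12 detected probe sets, 6 were called higher after acute morphine at an adjusted p of 5% (limma), against a background of 704 probe sets or 2.59%, and 0 lower, against 2.1%. They were the 3 of Slc2a1, both of Stxbp3 and the leading one of Txnip. After chronic morphine 3 were called higher, all of Slc2a1, against 1.36%, and 1 lower, of Stxbp4, against 3.38%. The Stxbp4 call lay near the threshold (adjusted p = 0.0462, limma). It was lost with no filter on signal, with no moderation and without SWR/J chronic replicate 3 (adjusted p = 0.0971, limma). Between chronic and acute 6 were called lower in chronic, against 14.6%, and 0 higher, against 8.87%. The morphine F-test called 7 at 1%, against 8.72%. Since the genes were chosen with these contrasts in view, nothing is read from the counts. A random term for arrays alike in treatment and replicate number left 4 acute calls, without the leading probe sets of Txnip and Stxbp3, and 1 chronic call, Slc2a1 1426600_at. Between chronic and acute it left 4 of the 6, without the Slc2a1 probe sets 1434773_a_at (adjusted p = 0.133, limma) and 1426599_a_at (adjusted p = 0.0942, limma). The median log2 difference of the 12 was 0.32 for acute minus saline and 0.073 for chronic minus saline, where the medians of all detected probe sets were 0.011 and 9e-05.

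Of the 12 probe sets, 3 passed the strain F-test at 1% (Slc2a3 1421924_at, Txnip 1415996_at and Stxbp4 1455706_at), against 13.2% of all detected probe sets. After saline, 0 comparisons of the 12 probe sets over 6 strain pairs passed 5% (limma), against 3.8% over all detected probe sets, and 8 of the 72 had an unadjusted p under 0.05, against 12.6%. The lowest adjusted values were those of Slc2a3 1421924_at, with 129P3/J minus SWR/J at 0.99 (SE 0.33, geometric means 105 and 53.1, adjusted p = 0.138, limma) and DBA/2J minus SWR/J at 0.97 (adjusted p = 0.147, limma). Without C57BL/6J saline replicate 1, the array of the outlying 25.2, 3 of these comparisons passed, each of them of 1421924_at against SWR/J. That array had a Gapdh 3′ minus 5′ log2 signal of 0.72, against -0.11 to 0.12 on the other arrays, a measure of how far RNA is shortened. The strain F-test of the Slc2a1 probe sets did not pass (adjusted p between 0.097 and 0.579, limma), except for 1426599_a_at under array weights (adjusted p = 0.000484, limma), and on its leading probe set the strain means lay within -0.086 and 0.077 of their average on the log2 scale.

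No probe set of the 6 genes showed a strain by morphine interaction (limma F-test, adjusted p = 0.94 for Stxbp4 1453989_at and 0.998 for the other 11), nor did any of the 27178 tested, so the background is 0%. At an unadjusted p under 0.05 the interaction counted 1 of the 12, Stxbp4 1453989_at, against 5.14%. The greater acute difference of C57BL/6J was tested as its response minus the mean response of the strains. For the leading Slc2a1 probe set this was 0.29 (SE 0.11, interval 0.064 to 0.51, adjusted p = 0.238, limma), and for Txnip it was 0.26 (SE 0.12, interval 0.019 to 0.49, adjusted p = 0.287, limma). Neither passed after adjustment, and the same contrast of Stxbp4 was -0.32 (interval -0.69 to 0.056, adjusted p = 0.385, limma).

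**Figure D4:**
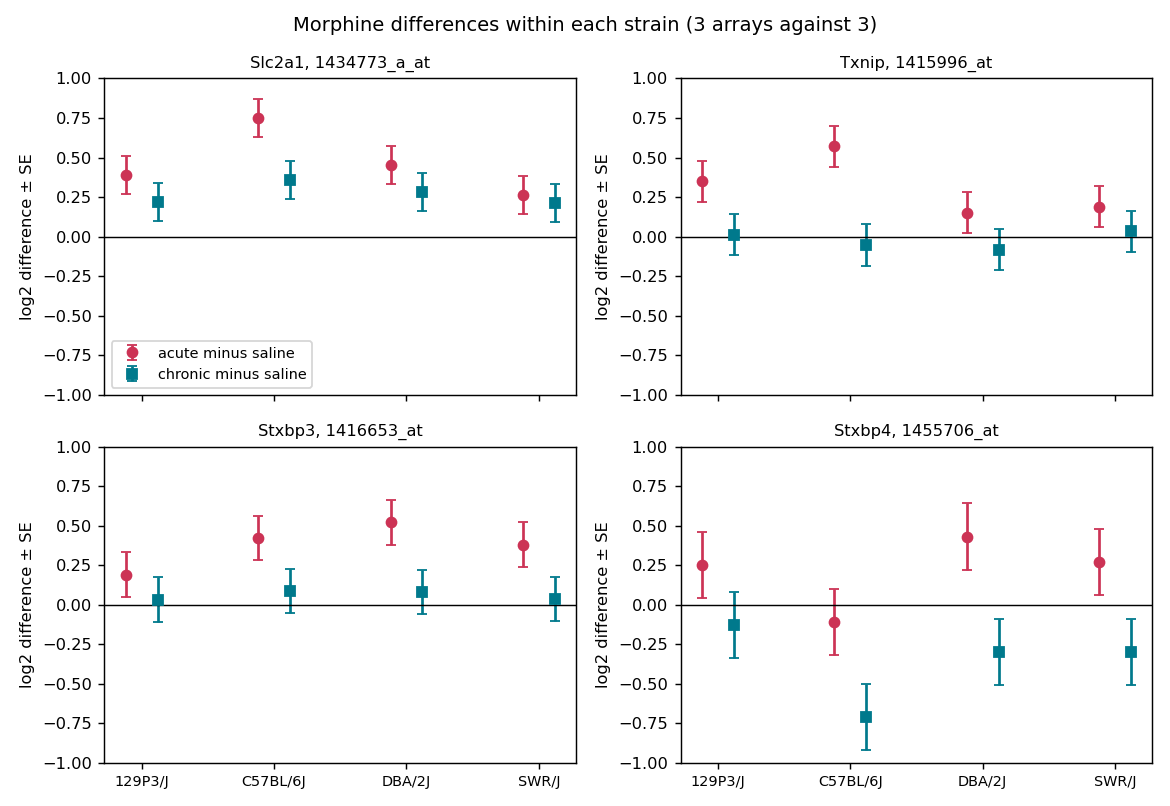
Log2 differences within each strain (3 arrays against 3) of 4 leading probe sets, with circles for acute minus saline, squares for chronic minus saline and bars for the SE. C57BL/6J has the highest acute values for Slc2a1 (0.75) and Txnip (0.57) and the lowest for Stxbp4 (-0.11).

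The probe sets varied together to different degrees over the 36 arrays, which share treatment and strain. The 3 of Slc2a1 had Pearson correlations of 0.80 to 0.95 with each other. The leading Slc2a1 probe set had 0.64 with Stxbp3, 0.52 with Txnip, 0.19 with Stxbp4 and 0.01 with Slc2a3. Over all detected probe sets, the genes most like Slc2a1 were Tsc22d3 (0.875), Cdkn1a (0.806) and Atp10a (0.792) over the arrays, and Tsc22d3 (0.966), Cdkn1a (0.960) and Smim3 (0.930) over the 12 group means. Tsc22d3 is a glucocorticoid-induced leucine zipper protein and Cdkn1a a cyclin-dependent kinase inhibitor. Stxbp3 was most like Sesn1 (0.841), Aff1 (0.794) and Errfi1 (0.793) over the arrays and Errfi1 (0.968), Aplp2 (0.967) and Klf15 (0.946) over the group means. Txnip was most like Maob (0.753), Fam20a (0.749) and Clic4 (0.747), and over group means Spry4 (0.900), Fam20a (0.893) and Eif4g3 (0.893). For Stxbp4 the nearest were Nnt (0.906), Atp6v1g1 (0.892) and Ifrd1 (0.891), and over group means Nnt (0.964), Trappc12 (0.959) and Gins4 (0.957). Nnt, the mitochondrial nicotinamide nucleotide transhydrogenase, is known to carry a deletion in C57BL/6J mice. Slc2a3 lay closest to Pdha1 (0.846), App (0.845) and Mtpn (0.832), and over group means to Brd8 (0.938), Kif3a (0.931) and Dnaja2 (0.928). These likenesses are given without a test.

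Other genes of glucose handling were read from 5 lists of 73 genes, 61 of them detected. The lists were chosen with earlier results of these data known, so their calls are a description and nothing is read from the counts. Of all detected probe sets, 2.59% were called higher and 2.1% lower after acute morphine (limma, adjusted p under 5%). After chronic morphine the shares were 1.36% and 3.38%. In the list of other sugar transporters 6 of 9 were detected and 0 passed 5% in either direction after acute or chronic morphine (limma), with median log2 differences of 0.0053 acute and 0.02 chronic, against 0.011 and 9e-05 over all detected probe sets. Slc2a2, Slc2a12 and Slc5a1 were not detected. Slc2a13, the proton-coupled myo-inositol carrier, had geometric means of 1450, 1422 and 1479 after acute morphine, chronic morphine and saline, and Slc2a5, the fructose carrier, 339, 337 and 311. Of 12 membrane fusion partners 10 were detected and 0 passed in either contrast with saline. Stx4a, the syntaxin to which Stxbp3 and Stxbp4 bind, had 693, 668 and 697 after acute morphine, chronic morphine and saline. With array weights 1 of these fusion genes, Snap23, passed after chronic morphine (0.27, adjusted p = 0.0299, limma).

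In the insulin signal to GLUT4 vesicles, with 17 of 19 genes detected, 4 rose and 1 fell after acute morphine, against 2.59% and 2.1% of all detected probe sets, and 0 rose and 1 fell after chronic morphine, against 1.36% and 3.38% (limma, adjusted p under 5%). With the random term, 1 of these 6 calls passed, that of Klf15 (adjusted p = 0.0225, limma). As the list was chosen with earlier results of these data known, this call is no separate evidence. Tbc1d4 (AS160), the Rab GTPase-activating protein that holds GLUT4 vesicles inside the cell until it is phosphorylated, averaged 342 after acute morphine, 252 after chronic morphine and 249 after saline, an acute rise of 0.46 (adjusted p = 0.00176, limma, and 0.0824 with the random term) that was 0.25 on the mean over its probe sets. Klf15, a Krüppel-like factor that raises Slc2a4 transcription in muscle and fat cells, averaged 309, 235 and 226 in the same order (acute rise 0.45, adjusted p = 0.000454, limma). The insulin receptor Insr and its substrate Irs1 rose by 0.23 (adjusted p = 0.0234, limma) and 0.22 (adjusted p = 0.0303, limma), while the kinase Akt2 fell by 0.25 (adjusted p = 0.0135, limma), and these 3 were named after their values were seen. With the random term their adjusted p-values were 0.213, 0.251 and 0.159 (limma), and Insr was at 0.13 and did not pass on the mean over its probe sets. Exoc7, an exocyst subunit that tethers the vesicles, fell by 0.29 after chronic morphine (adjusted p = 0.0267, limma, and 0.221 with the random term), with 334 chronic, against 410 saline. Under alternatives more genes passed. With array weights these were Rab10 (-0.19) and Rhoq (-0.13) after acute and Irs2 (0.30), Myo1c (0.21) and Akt2 (-0.18) after chronic morphine. Replicate number as a fixed block gave Rab10 (-0.19) and Sh2b2 (0.39) after acute and Sh2b2 (0.34) and Myo1c (0.19) after chronic morphine. Rab10 also passed with median centring (-0.19).

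Among Txnip partners and relatives, 10 of 11 were detected and 1 rose after acute morphine, against 2.59% of all detected probe sets. The gene was Mlxip (MondoA), which activates Txnip transcription when glucose is plentiful. It averaged 213 after acute morphine, 178 after chronic morphine and 169 after saline (acute rise 0.34, adjusted p = 0.0126, limma, and 0.116 with the random term). Under alternatives Txnrd1 passed after acute morphine (0.17, array weights) and Arrdc2 after chronic morphine (0.47, replicate number as a fixed block). In glycolysis and lactate transport, 18 of 22 genes were detected, and the genes that passed against saline were 2 lactate carriers. Both fell after acute morphine, against 2.1% of all detected probe sets, and 1 fell after chronic morphine, against 3.38%. Enzymes passed under some alternatives. With array weights these were Pfkp (0.12, adjusted p = 0.0462, limma) and Pfkfb2 (0.12, adjusted p = 0.0481, limma) after acute morphine. After chronic morphine they were Hk2 (0.25, adjusted p = 0.0114, limma) and Pfkfb2 (0.15, adjusted p = 0.0262, limma). Pfkp also passed after acute morphine with replicate number as a fixed block (0.13, adjusted p = 0.0242, limma), and Pfkm after chronic morphine with quantile normalization (0.13, adjusted p = 0.0374, limma). Slc16a1 (MCT1) averaged 454 acute, 404 chronic and 552 saline, a fall of 0.28 after acute (adjusted p = 0.0369, limma) and of 0.45 after chronic morphine (adjusted p = 0.00141, limma). Slc16a3 (MCT4), near the detection limit with 87.3 acute and 113 saline, fell by 0.37 after acute morphine (adjusted p = 0.0371, limma). Over the 61 detected genes of the 5 lists, 5 rose and 3 fell after acute morphine, against 2.59% and 2.1% of all detected probe sets. After chronic morphine 0 rose and 2 fell, against 1.36% and 3.38%. When a random term was shared by arrays alike in treatment and replicate number, 1 of these 10 calls passed, the rise of Klf15, and Slc16a1 after chronic morphine had an adjusted p of 0.077 (limma).

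Array medians lay at 119 to 133 and replicates correlated at 0.941 to 0.986, and the one array that stood apart in the Gapdh 3′ to 5′ measure was C57BL/6J saline replicate 1. Between strains, arrays that had both treatment and replicate number in common deviated together, with a mean correlation of 0.264 over 54 pairs, of which 90.7% were above 0. A random term for such arrays widened the SE of the all-strain differences on the leading probe sets. It was 0.081 in place of 0.062 for Slc2a1, 0.085 in place of 0.067 for Txnip, 0.096 in place of 0.069 for Stxbp3 and 0.14 in place of 0.10 for Stxbp4. For the leading Slc2a1 probe set the geometric means over strains of replicates 1, 2 and 3 were 1768, 1875 and 1680 acute and 1164, 1309 and 1400 saline. Each acute value stood above each saline one. Markers of medium spiny neurons, the principal cells of striatum, were present, with 8 of 10 detected and summed intensities of 16696 to 20168 acute, 16976 to 19536 chronic and 17245 to 20844 saline. Of these, Drd2 and Rgs9 fell by 0.27 and 0.18 after chronic morphine (adjusted p = 0.00316 and 0.0142, limma, and 0.0518 and 0.183 with the random term). The oligodendrocyte markers Cnp and Mag fell by 0.25 and 0.23 after chronic morphine (adjusted p = 0.00534 and 0.0314, limma, and 0.0949 and 0.219 with the random term), among 5 of 6 detected. Of the 6 microglial markers Cx3cr1 fell by 0.52 after acute morphine (adjusted p = 0.000362, limma, and 0.0106 with the random term), and Aif1 fell by 0.33 (adjusted p = 0.0345, limma, and 0.272 with the random term). The remaining acute differences, none of them called, were -0.23 for P2ry12, 0.0013 for Csf1r, 0.047 for C1qb and 0.20 for C1qa. Together the 6 summed to 3497 to 4606 (median 4201) acute, 3183 to 5074 (median 3966) chronic and 3550 to 5200 (median 4068) saline. The part of these markers in the values of the 6 genes was not tested.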

How the data were processed

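Total RNA of 36 striatal pools was hybridized to Affymetrix Mouse Genome 430 2.0 arrays. The authors deposited 1 signal intensity per probe set on a linear scale, with a floor of 6.69. Their methods name 3 summarizations, RMA, PDNN and the dChip model-based index (MBEI), and the table does not say which it holds. In it 2 values were missing. Arrays were assigned to strain and treatment by their labels. Log2 intensities of 27178 detected probe sets (above 100 on at least 9 arrays, the intensity part of the methods' rule, whose present-call part was not applied) were fitted with 12 group means in limma 3.58.1 (R 4.3.3). P-values were adjusted by Benjamini-Hochberg over all detected probe sets, at 1% for F-tests and 5% for contrasts. Array number, 3 per group, limits the precision. Fits were tested on simulated data. Members and gene lists were chosen with earlier results of these data known. For genes with several probe sets, the detected one of highest mean signal leads. Named from each list are the 2 largest called differences for each treatment, and for likeness the 3 highest correlations. Marker genes and genes that passed only under alternatives were named after their values were seen.

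Alternatives were array weights, other filters (mean signal, none), median centring, quantile normalization, a pseudocount of 16, no moderation, the mean over probe sets, replicate number as a fixed block, treatment with number as a random block (duplicateCorrelation, statmod 1.5.0), and each array left out. Markers of medium spiny neurons, endothelium, vessel wall, choroid plexus, astrocytes, oligodendrocytes, microglia, red blood cells and cortical neurons were summed. Promoter sequences came from RefSeq (GRCm38.p6). Tables and figures used Python 3.11.15, pandas 2.3.3, numpy 2.4.6 and matplotlib 3.10.9.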

Additional observations from a re-analysis of the deposited data

Results flagged for a closer look

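In 3 of 48 sets of 9 arrays of 1 strain, an array stood apart from its neighbours by more than Dixon's critical value, where chance gives about 1 in 20. Slc2a3 1455898_x_at read 1732 on DBA/2J acute replicate 3. Slc2a3 1421924_at read 25.2 on C57BL/6J saline replicate 1, the array with the high Gapdh 3′ minus 5′ signal of 0.72. Stxbp4 1455706_at read 45.2 on C57BL/6J chronic replicate 3.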

How the results depend on the processing

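The counts of member probe sets kept their side of each threshold under most alternatives. With treatment and replicate number as a random block (consensus correlation 0.242), the morphine effect was called on 3 member probe sets in place of 7, the chronic difference on 1 (Slc2a1 1426600_at) in place of 4, 1 saline strain pair passed in place of 0, and 1 call of the other pathway genes passed in place of 10. The acute calls then numbered 4, without the leading probe sets of Txnip (adjusted p = 0.0899, limma) and Stxbp3 (adjusted p = 0.0665, limma). Array weights gave 2 saline pairs and 21 pathway calls. Replicate number as a fixed block gave 16 pathway calls and left the strain (3), acute (6) and chronic (4) counts as they were. Arrays of the same strain and number in different treatments had a mean correlation of deviations of 0.0306 (-0.447 to 0.477 over 36 pairs), so the numbers did not pair treatments. With each array left out, the counts ran over 3 to 4 for strain, 0 to 3 for saline pairs (3 without C57BL/6J saline replicate 1), 0 to 0 for the interaction, 7 to 7 for morphine, 6 to 6 for acute, 3 to 4 for chronic, 5 to 7 for chronic minus acute and 6 to 14 for the pathway, with 6 without 129P3/J saline replicate 1 or DBA/2J saline replicate 1. No called difference reversed. Of the uncalled ones, Txnip 1415996_at chronic minus saline (-0.023) was 0.033 on the mean over probe sets, 0.012 without 129P3/J chronic replicate 3 and 0.0067 without C57BL/6J saline replicate 2, and Slc2a3 1437052_s_at was 0.058 (mean over probe sets) and 0.036 (quantile normalization) in place of -0.016 for chronic minus saline and 0.0034 (quantile normalization) in place of -0.059 for chronic minus acute. The cause of these shifts was not tested. Over all detected probe sets the morphine F-test called 2371, against 130 with the random block and 6482 with array weights. Probe sets near an intensity of 100 (Slc2a3 1421924_at, Txnip 1415997_at, Stxbp4) had the widest spread, with residual SDs of 0.27 to 0.42 on the log2 scale, against 0.082 to 0.18 for brighter ones of Slc2a1, Slc2a3, Txnip and Stxbp3 other than 1435058_x_at.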
